A study of Mus musculus with 27 samples.

Results

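Muscle wasting genes of 3 kinds were followed here: the ubiquitin ligases Fbxo32, Trim63 and Fbxo30, the transcription factors Foxo1, Foxo3 and Foxo4, and the mitophagy receptor Bnip3. The 7 genes were chosen by name, and each was found once among the 55852 entries of the table of injured muscle and once among the 55677 entries of the table that holds control muscle. RNA was sequenced from gastrocnemius muscle of male mice after an injection of cardiotoxin (CTX), a toxin from snake venom that destroys muscle fibres, after which the muscle regenerates. WT mice (C57BL/6J) and Gsdme KO mice, described as global knockouts of the gene for the pore forming protein gasdermin E, were sampled 1, 4, 7 and 14 days after CTX (D1, D4, D7, D14), giving 3 libraries for each combination of genotype and day. A further 3 libraries came from WT control muscle, which the study describes as the uninjured muscle of the opposite leg at D1 and the deposited description calls unloaded. Sample titles read KO where the genotype field reads knockdown, so KO below means the libraries labelled KO. Mouse age and the pooling of animals are not given in the sources used here, and the description counts the 3 libraries of a group as biological triplicates.

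In skeletal muscle, the FoxO factors stand at the end of the insulin and IGF pathway. When that pathway is active, AKT phosphorylates FoxO proteins and keeps them out of the nucleus, and when it is weak, as in fasting or denervation, FoxO proteins enter the nucleus and switch on genes for protein breakdown. Fbxo32 encodes atrogin-1, a muscle-restricted F-box protein that directs regulators of protein synthesis and myogenic factors to the proteasome. Trim63 encodes MuRF1, a muscle-restricted RING ligase that marks myosin and other thick filament proteins for breakdown. Fbxo30 encodes MUSA1, an F-box protein required for muscle loss after denervation, and Bnip3 encodes an outer mitochondrial membrane protein that recruits the autophagy machinery. Activity of FoxO proteins is set largely by phosphorylation and location, which RNA levels do not measure.

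The members lie on separate chromosomes except for Fbxo30 and Foxo3, and their positions are given in GRCm38 from GENCODE, the build that the submitters' notes name as mm10. Fbxo32 (ENSMUSG00000022358) is at chr15:58175879-58214932 on the minus strand and Trim63 (ENSMUSG00000028834) at chr4:134315120-134329629 on the plus strand. Fbxo30 (ENSMUSG00000047648) is at chr10:11281330-11298052 on the plus strand, and Bnip3 (ENSMUSG00000078566) at chr7:138890836-138909519 on the minus strand. Foxo1 (ENSMUSG00000044167) is at chr3:52268336-52353221 on the plus strand, Foxo3 (ENSMUSG00000048756) at chr10:42181841-42276755 on the minus strand and Foxo4 (ENSMUSG00000042903) at chrX:101254528-101260873 on the plus strand. Strand use in counting was not stated, and the exons of Fbxo32 overlap those of the antisense gene Gm15943, which was listed at 0 to 1.16 TPM. Exons of Foxo1 and Bnip3 overlap those of the antisense genes Gm20402 (674 bases) and Gm45507 (504 bases), both listed at 0 TPM in injured muscle.

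The upstream sequence of Trim63 is shown because this ligase was called both between control muscle and D1 and between D1 and D4. Promoter windows of 5 of the 7 members, Trim63, Fbxo30, Foxo1, Foxo3 and Bnip3, were matched in RefSeq (GRCm38.p6). The FoxO core motif GTAAACA, or its reverse complement TGTTTAC, was found on either strand in 3.17% of 32851 promoter windows, and among these 5 members in that of Trim63 alone. In the 250 bases before the Trim63 start, chr4:134314870-134315119 on the plus strand, the motif stands in capitals:

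Trim63: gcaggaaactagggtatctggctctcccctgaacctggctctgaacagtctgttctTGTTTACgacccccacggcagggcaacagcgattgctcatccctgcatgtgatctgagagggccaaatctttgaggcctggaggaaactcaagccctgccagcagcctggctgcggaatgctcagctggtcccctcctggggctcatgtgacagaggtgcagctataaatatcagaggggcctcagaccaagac

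The motif covers bases 194 to 188 before the start, and the 6 bases directly before it, tgttct, are the reverse complement of the glucocorticoid receptor half-site AGAACA, which 16.1% of the windows hold. Of the 5 members, only Trim63 had this half-site in its window. These matches describe letters and not occupied sites.

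Expression was deposited as TPM, a transcript abundance normalised for gene length and library total, so that levels can be compared between genes. Trim63 was the most abundant of the 3 ligases in all 27 libraries, at 59.97 to 502.12 TPM in injured muscle. Fbxo32 followed at 4.39 to 72.12 TPM and Fbxo30 at 2.11 to 6.95 TPM. Among the FoxO factors, Foxo4 was highest at 30.14 to 57.17 TPM, while Foxo3 lay between 4.47 and 13.79 TPM and Foxo1 between 2.72 and 7.14 TPM. Bnip3 ranged from 62.02 to 226.46 TPM. Over the 24 injured libraries the highest value exceeded the lowest 16.4-fold for Fbxo32 and 8.37-fold for Trim63, against 1.90-fold for Foxo4.

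Libraries differed in composition. The number of genes of at least 1 TPM ran from 11785 to 14704, and between 25.4% and 61.4% of a library's TPM fell on its 50 most abundant genes. Since TPM are shares, this moves all other genes, and results that change under another scaling are marked. On D4, WT replicate 1 and KO replicate 2 stood apart, with 25.4% and 51.1%. Gsdme, the targeted gene, was checked first: it was 2.76, 4.85 and 3.16 TPM in WT D1 against 1.53, 1.28 and 2.17 TPM in KO D1, and on D4 and D7 all KO libraries were likewise below all WT libraries. On D14 the genotypes overlapped (1.46 to 2.26 TPM in WT and 1.27 to 1.96 TPM in KO), and reads of Gsdme were present in all KO libraries. Averaged over days, KO minus WT was -0.55 ± 0.0949 (SE) for Gsdme on the log2(TPM + 1) scale (adjusted p = 0.0664, limma).

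**Figure D1:**
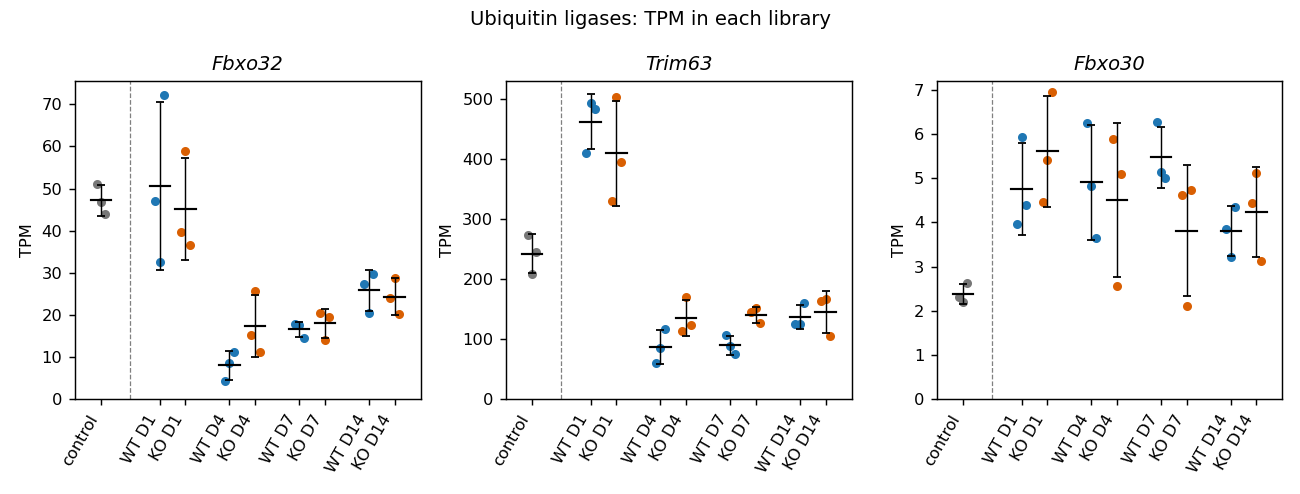
TPM of Fbxo32, Trim63 and Fbxo30 in each library (points; grey control, blue WT, orange KO), with the mean (line) and SD (error bar) of 3 libraries per group; control values left of the dashed line come from the separate control table. All 6 D1 libraries lie above all later libraries for Fbxo32 and for Trim63, and Trim63 on D1 also lies above the 3 control libraries.

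The first comparison asked how the ligases responded within a day of injury. Trim63 was 273.77, 208.44 and 244.81 TPM in control muscle and 408.3, 492.85 and 481.63 TPM in WT D1. Every injured library was above every control library, and the mean rose 1.90-fold from 242 ± 32.7 to 461 ± 45.9 TPM (SD, n = 3). Fbxo32, its usual companion in atrophy, was 51.15, 46.71 and 43.86 TPM in control and 47.03, 32.71 and 72.19 TPM in WT D1. The Fbxo32 groups overlapped, with the injured libraries on both sides of the controls.

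Fbxo30 was 2.31, 2.21 and 2.64 TPM in control and 3.96, 5.95 and 4.37 TPM in WT D1, 1.99-fold higher in the mean and without overlap. Bnip3 was 202.7, 181.52 and 207.65 TPM in control and 87.71, 61.63 and 182.71 TPM in WT D1, where the highest injured library reached the range of the controls. With Foxo3, 3 members were above their controls without overlap, as were 64.2% of all tested genes, so this separation is the common case here.

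In the limma fit of this table, 3 of the 7 members passed an adjusted p of 0.05, where 61.1% of all 13041 tested genes did. On the log2(TPM + 1) scale, Trim63 was higher by 0.93 ± 0.175 (SE, adjusted p = 0.00374) and Fbxo30 by 0.75 ± 0.213 (adjusted p = 0.0162), whereas Bnip3 fell by 0.98 ± 0.347 (adjusted p = 0.0381). Fbxo32 differed by 0.03 ± 0.267 (adjusted p = 0.929). The median of all genes was itself 0.66 higher in WT D1, so that relative to it Trim63 stood at 0.27, Fbxo30 at 0.09 and Bnip3 at -1.64. The fall of Bnip3 was called under all 3 other scalings (-1.76 to -1.45), but over all alternatives in 8 of 14, and the call was lost with no filter, without any 1 of the control libraries and without WT D1 replicate 1 or 2. Without WT D1 replicate 2 the difference was -0.63 (adjusted p = 0.0952), and the highest adjusted p over the alternatives was 0.114. Without control replicate 1 or without control replicate 2, 1 member was called, and without WT D1 replicate 3, 4 were. The increase of Trim63 held under quantile normalization (0.57, adjusted p = 0.0304), but not with median-of-ratios scaling (0.14, adjusted p = 0.544) or with the 50 most abundant genes removed (0.41, adjusted p = 0.0999). That of Fbxo30 was lost under all 3 scalings and turned to -0.02 under quantile normalization.

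The FoxO factors were not called in this comparison, with Foxo1 at 4.68, 3.75 and 4.48 TPM in control and 3.68, 3.81 and 2.72 TPM in WT D1. Under the other scalings Foxo1 was called, with differences of -1.03 to -0.77 (adjusted p from 0.00432 to 0.0116), as was Foxo4, with -1.11 to -0.85 (adjusted p from 0.0210 to 0.0443). Foxo4 levels also depended on the table, since the control table differed from the injured table by -12.4% to -10.5% for Foxo4 in the same WT D1 libraries, and by -1.15% to 0.337% for the other members. Foxo3 differed by 0.38 ± 0.219 as deposited and turned to between -0.43 and -0.079 under the other scalings, with a call under quantile normalization alone (adjusted p = 0.0436).

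A ratio of 2 members within a library is not changed by multiplying all its TPM by 1 factor. The ratio of Trim63 to Fbxo32 was 5.35, 4.46 and 5.58 in control and 8.68, 15.1 and 6.67 in WT D1, without overlap (exact two-sided permutation p = 0.1, the smallest that 3 against 3 can give). With 36 ratio comparisons made, the smallest adjusted p was 0.36. The study describes injured muscle at D1 in both of its sequencing batches, and control muscle in the first alone. Since the sources do not say which batch the WT D1 libraries come from, batch and injury cannot be told apart in this comparison.

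Markers of cell types moved as well. The summed TPM of 17 mature myofibre genes was 230019 to 250525 in control and 118663 to 240299 in WT D1, while that of 10 leukocyte genes was 170 to 220 in control and 1005 to 4656 in WT D1. No marker of either list was at 0 in a whole group. In bulk muscle, fewer fibres and less RNA per fibre cannot be told apart. Within WT D1, replicate 3 had the highest myofibre sum and the highest Fbxo32, Foxo4 and Bnip3, and replicate 2 had the lowest of all 4. The part of these shares in the results was not tested.

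Set against the mean log2(TPM + 1) of the 17 myofibre genes in the same library, Trim63 was 1.91 higher in WT D1 than in control (exact permutation p = 0.1), and Fbxo32 was 1.01 higher (exact permutation p = 0.1). On this scale the groups did not overlap for either gene. The TPM of Fbxo32, by contrast, overlapped between these groups. Relative to the myofibre genes, Fbxo30 (1.74), Foxo3 (1.37), Foxo1 (0.71) and Foxo4 (0.65) were also higher in WT D1 (exact permutation p = 0.1 for each). Bnip3 was not (0.01). The myofibre mean itself went from 12.8 in control to 11.8 in WT D1, which raises every gene on this scale. The share of all genes that separate on it was not computed.

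**Figure D2:**
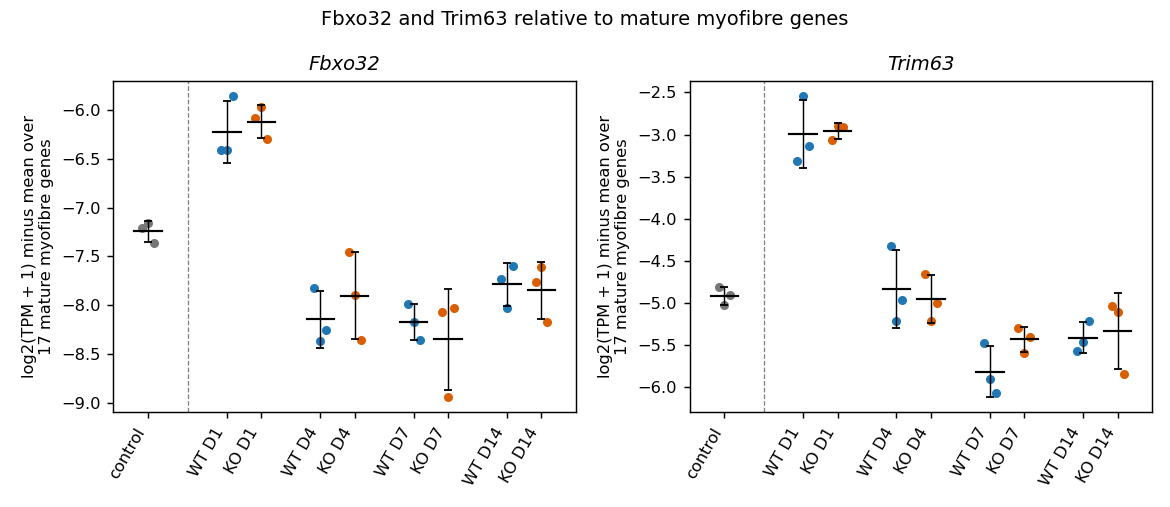
Fbxo32 and Trim63 as log2(TPM + 1) minus the mean log2(TPM + 1) of 17 mature myofibre genes in the same library (points), with mean and SD of 3 libraries; control values left of the dashed line come from the separate control table. Both genes are highest on D1 in both genotypes, and WT and KO overlap for Fbxo32 on each day.

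For Fbxo32 and Trim63 the steepest change of the time course lay between D1 and D4. In WT, Fbxo32 went from 46.98, 32.68 and 72.12 TPM on D1 to 4.39, 8.72 and 11.12 TPM on D4, a mean 6.26 times lower. Trim63 went from 408.71, 492.37 and 482.29 TPM to 59.97, 85.8 and 116.71 TPM, a mean 5.27 times lower. The days did not overlap for either gene, and 7.39% of all genes were lower in this step without overlap.

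The same step was seen in KO. Fbxo32 went from 39.75, 58.97 and 36.63 TPM to 15.32, 25.61 and 11.28 TPM, 2.59 times lower in the mean. Trim63 went from 329.45, 502.12 and 395.37 TPM to 113.38, 169.7 and 123.83 TPM, 3.02 times lower. Again the days did not overlap, where 19.8% of all genes were lower without overlap. Both KO days belong to the second sequencing batch that the study describes, whereas none is stated for WT D1. The WT step and the difference of steps therefore cannot be told apart from a difference of batch.

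Of the 7 members, 2 were called from D1 to D4 in WT, where 19.8% of 15718 tested genes were, and the same 2 in KO, where 19.4% were. In WT, Fbxo32 fell by 2.51 ± 0.318 (SE, adjusted p = 6.9e-05) and Trim63 fell by 2.43 ± 0.233 (adjusted p = 7.42e-06) on the log2 scale. In KO, Fbxo32 fell by 1.37 ± 0.318 (adjusted p = 0.00701) and Trim63 fell by 1.59 ± 0.233 (adjusted p = 0.000281). These 4 falls kept their call under every alternative scaling, filter, weighting and left-out library. Other markers moved in the same step: in WT the summed TPM of 7 regenerating muscle genes was between 694 and 880 on D1 and between 5948 and 6987 on D4. That of the myofibre genes in WT was between 118125 and 238944 on D1 and between 60385 and 121211 on D4. In KO the regenerating muscle sum was 545 to 1075 on D1 and 2592 to 7629 on D4. The KO myofibre sum was 91553 to 125549 on D1 and 98098 to 191482 on D4. Of the 17 myofibre genes, 16 were higher on D4 in KO and 3 in WT. The part of both lists was not tested. Relative to the myofibre genes, D4 minus D1 was -1.92 in WT and -1.78 in KO for Fbxo32, and -1.84 in WT for Trim63, which was lower in KO as well, each without overlap (exact permutation p = 0.1 for each).

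Whether the step differed between genotypes was tested directly. The KO step minus the WT step was 1.14 ± 0.45 for Fbxo32 (adjusted p = 0.204) and 0.85 ± 0.329 for Trim63 (adjusted p = 0.204). None of the 7 members and 0% of all genes were called in this test or in those of the later steps. At an unadjusted p under 0.05 stood 2 members and 23.3% of all genes in the first. In the D4 to D7 and D7 to D14 steps 0 members did, where 2.83% and 3.09% of genes did. An F test of whether KO minus WT varied over the 4 days called 0 genes as well, with 1203 at an unadjusted p under 0.05 and a lowest adjusted p of 0.527, which Fbxo32, Trim63 and Foxo4 shared.

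The other 5 members were not called from D1 to D4 in either genotype. Foxo3 was 7.65, 9.57 and 6.7 TPM in WT D1 and 13.79, 11.13 and 9.9 TPM in WT D4, without overlap, as in 22.1% of genes that were higher, and differed by 0.49 ± 0.23 (adjusted p = 0.145). Foxo1 was 3.24 to 3.91 TPM in WT D4 and 4.09 to 5.04 TPM in KO D4, and Fbxo30 was 3.64 to 6.24 TPM and 2.55 to 5.89 TPM. Bnip3 was 77.6 to 100.43 TPM in WT D4 and 88.95 to 168.89 TPM in KO D4.

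From D4 to D7, Fbxo32 rose in WT, to 17.8, 17.54 and 14.64 TPM, all above the D4 libraries, as in 9.52% of all genes, and 2.06 times higher in the mean. Foxo1 (4.5 to 6.14 TPM on D7, 3.24 to 3.91 TPM on D4) was likewise higher without overlap. So was Bnip3 (106.19 to 120.82 TPM on D7, 77.6 to 100.43 TPM on D4). Trim63 was 106.63, 88.66 and 75.38 TPM on D7, within the range of D4. Only Fbxo32 of the 7 members was called (1.03 ± 0.318, adjusted p = 0.0414), where 12.3% of genes were. Without WT D4 replicate 1, which had the lowest Fbxo32, the difference was 0.70 and 0 members were called. The call was also lost without WT D4 replicate 2 or without any 1 of the WT D7 libraries. It was lost as well with median-of-ratios scaling, with no filter and with the replicate block, and held in 6 of 15 alternatives. Relative to the myofibre genes, Fbxo32 differed by -0.03 (exact permutation p = 1). The ratio of Trim63 to Fbxo32 went from 13.7, 9.84 and 10.5 on D4 to 5.99, 5.05 and 5.15 on D7 in WT, without overlap (exact permutation p = 0.1). The D7 values overlapped with those of control muscle.

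In KO, Fbxo32 was 20.44, 14.06 and 19.55 TPM on D7 and Trim63 144.89, 151.89 and 126.24 TPM, both overlapping with D4. None of the members was called from D4 to D7 in KO by limma, at 0% of all genes. At an unadjusted p under 0.05 stood 0 members, where 9.89% of genes did. The ratio of Trim63 to Fbxo32 was 7.40, 6.63 and 11.0 in KO D4 and 7.09, 10.8 and 6.46 in KO D7.

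**Figure D3:**
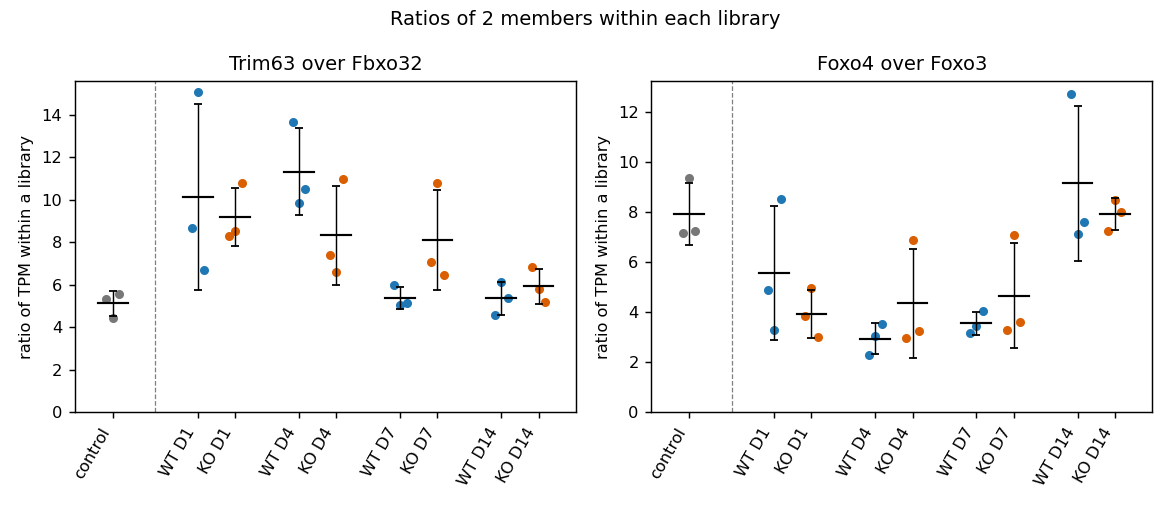
Ratio of TPM of Trim63 to Fbxo32 and of Foxo4 to Foxo3 within each library (points), with mean and SD of 3 libraries per group; control values left of the dashed line come from the separate control table. The 3 WT D7 libraries sit between 5.05 and 5.99 for Trim63 over Fbxo32, below the 3 KO D7 libraries, and Foxo4 over Foxo3 is at least 7.12 in all D14 libraries.

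From D7 to D14 in WT, Foxo3 and Foxo4 moved in opposite directions. Foxo3 went from 11.94, 10.02 and 8.73 TPM to 4.47, 7.7 and 6.36 TPM, while Foxo4 went from 37.88, 34.52 and 35.41 TPM to 56.82, 54.84 and 48.49 TPM. The days did not overlap for either factor. Of all genes, 58.9% were lower without overlap in this step, as Foxo3 was, and 4.58% were higher, as Foxo4 was. Over the same days the summed TPM of the leukocyte genes was 1467 to 2021 on D7 and 179 to 624 on D14, with 10 of 10 genes called lower, and that of the regenerating muscle genes 2568 to 3691 on D7 and 692 to 1087 on D14, with 6 of 7 called lower. The fibro-adipogenic progenitor list had 3 of 7 genes called lower, and of the 17 myofibre genes 0 were called. The part of these shares was not tested. The ratio of Foxo4 to Foxo3 went from 3.17, 3.45 and 4.06 to 12.7, 7.12 and 7.62 (exact permutation p = 0.1), and in control muscle it was 7.16, 9.35 and 7.24. The control ratios come from the other table, in which Foxo4 differed by -12.4% to -10.5% in the same WT D1 libraries.

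In KO the same ratio went from 3.30, 7.09 and 3.59 on D7 to 7.24, 8.49 and 8.02 on D14, again without overlap (exact permutation p = 0.1). KO D7 replicate 2, the high value, was also the KO D7 library with the lowest leukocyte sum, 536 against 1294 and 1358 TPM, and the highest myofibre sum. The part of these shares was not tested.

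In limma, 2 of 7 members were called from D7 to D14 in WT, where 31.8% of genes were. Foxo4 was 0.56 ± 0.168 higher (adjusted p = 0.0215), and Foxo3 fell by 0.66 ± 0.23 (adjusted p = 0.0367). The median difference of all genes was -0.45, and relative to it Foxo3 stood at -0.21 and Foxo4 at 1.01. Under the 3 other scalings Foxo4 was called as well (0.94 to 1.14), whereas Foxo3 was at -0.35 to -0.087 and not called. Without WT D7 replicate 1 or 2, or without WT D14 replicate 1 or 3, 0 members were called. In KO, none of the members was called, where 0.56% of genes were. There 1 member, Foxo3, had an unadjusted p under 0.05 (-0.50 ± 0.23), as did 19.3% of genes. By overlap, Foxo3 was lower on D14 in all KO libraries too, as were 25.7% of genes. Foxo4 and Bnip3 were higher in all KO libraries, as were 5.48%, with a narrow gap for Foxo4 (48.31 against 48.06 TPM).

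Trim63 was 126, 125.43 and 160.58 TPM in WT D14, all above WT D7, and differed by 0.61 ± 0.233 (adjusted p = 0.0531), with a call under each of the 3 other scalings (0.96 to 1.19). Bnip3 was 111.54, 106.19 and 120.82 TPM in WT D7 and 209.77, 159.88 and 181 TPM in WT D14, also without overlap (0.69 ± 0.285, adjusted p = 0.0679), and was called under 2 of the 3 other scalings. Fbxo32 was 27.39, 20.41 and 29.84 TPM in WT D14, all above WT D7 (limma 0.59 ± 0.318, adjusted p = 0.145), and 23.96, 28.87 and 20.3 TPM in KO D14. Fbxo30 was lower in WT D14 than in WT D7 without overlap (limma -0.43 ± 0.267, adjusted p = 0.203). From D7 to D14 in WT, 4 members were higher without overlap, against 4.58% of all genes, and 2 were lower, against 58.9%. For Trim63, KO D14 stood at 163.64, 167.46 and 105.48 TPM, and for Bnip3 at 226.46, 197.51 and 158.46 TPM.

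The ratio of Foxo3 to Foxo1 separated the WT days. It was 2.08 to 2.51 on D1, 2.63 to 3.53 on D4, 1.94 to 1.97 on D7 and 0.891 to 1.47 on D14, with no overlap between neighbouring days (exact permutation p = 0.1 for each step, adjusted p = 0.36). In control muscle it was 1.26 to 1.43. In KO the ratio was 1.88 to 2.89 on D1, 1.59 to 2.66 on D4, 1.79 to 1.93 on D7 and 1.32 to 1.85 on D14, and neighbouring days overlapped.

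Levels on D14 and in control muscle come from different tables and were set side by side with no test. Fbxo32 on D14 was 54.8% of the control mean in WT and 51.6% in KO, and Trim63 was 56.7% and 60.1%. Bnip3 was 93.0% in WT and 98.4% in KO, Foxo3 105% and 107%, and Fbxo30 159% and 177%. Foxo1 was 129% in WT and 94.7% in KO, and Foxo4 was 117% and 109%. For Foxo4 the control table differed by -12.4% to -10.5% in the same WT D1 libraries, so its percentages also hold this offset. All 6 D14 libraries were below all 3 control libraries for Fbxo32 and for Trim63. How many of all genes show this was not computed, so whether it is common is not known.

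**Figure D4:**
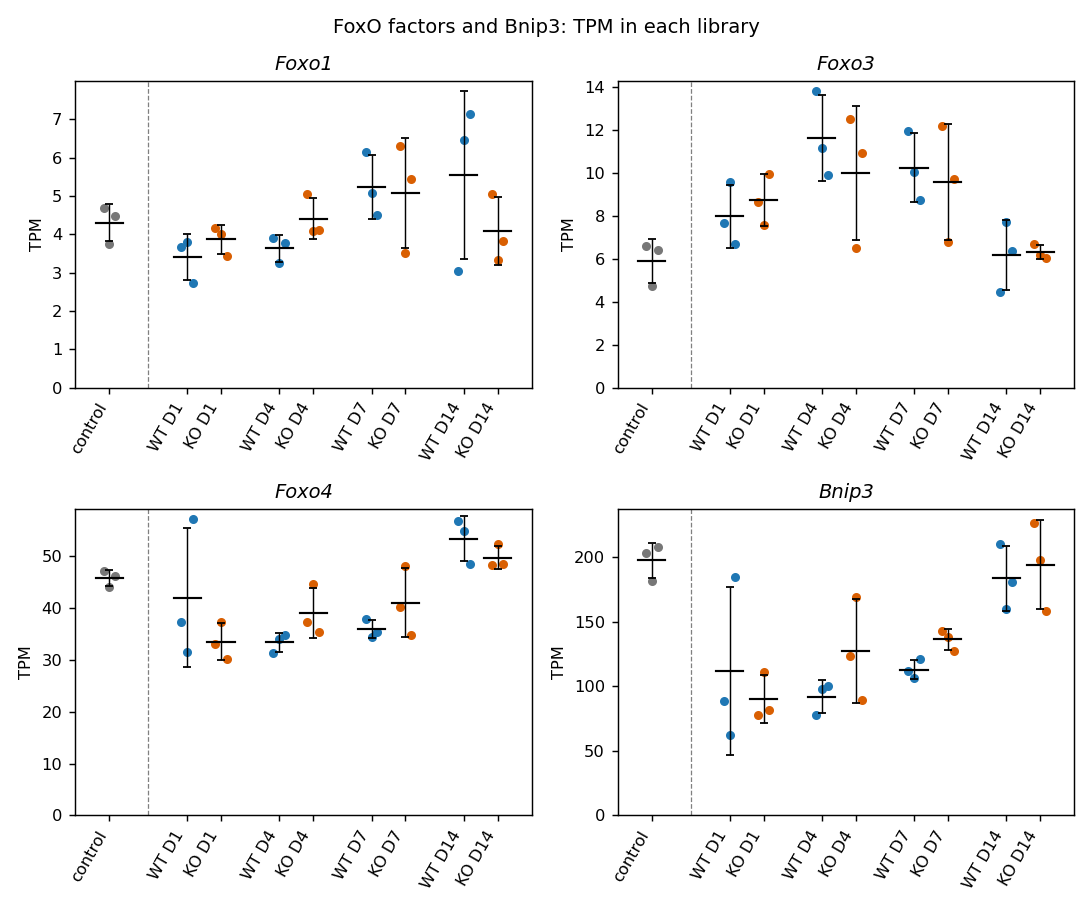
TPM of Foxo1, Foxo3, Foxo4 and Bnip3 in each library (points; grey control, blue WT, orange KO), with the mean (line) and SD (error bar) of 3 libraries per group; control values left of the dashed line come from the separate control table. All 6 D14 libraries of Foxo4 lie above all D4 and D7 libraries, and Foxo3 in WT is highest on D4.

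The comparison of genotypes asked whether loss of Gsdme moved these genes on any day. On D4, Fbxo32 was 15.32, 25.61 and 11.28 TPM in KO and 4.39, 8.72 and 11.12 TPM in WT. All KO libraries were above all WT libraries, by a narrow gap, and the KO mean was 2.15 times higher. On D7, Trim63 was 144.89, 151.89 and 126.24 TPM in KO and 106.63, 88.66 and 75.38 TPM in WT, 1.56 times higher in the mean and without overlap.

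For D1, batch and genotype cannot be told apart either. No member was called between genotypes in limma. On D1, 0 of 7 members passed, against 0.00636% of 15718 genes, and on D4, D7 and D14 0 members and 0% of genes passed. At an unadjusted p under 0.05 stood 2 members on D4, where 22.7% of all genes did, and 1 on D7, where 3.06% did. On D1 and D14, 0 members did, where 5.38% and 2.06% of genes did. On D4, Fbxo32 was 1.02 ± 0.318 higher in KO (SE, adjusted p = 0.212) and Trim63 0.66 ± 0.233 (adjusted p = 0.212), where the median of all genes was -0.28. On D7, Trim63 was 0.65 ± 0.233 higher (adjusted p = 0.776), where the median of all genes was -0.19. With library quality weights the D7 difference of Trim63 was 0.57 and passed the threshold (adjusted p = 0.0221), as did 3.39% of all genes in that setting against 0% otherwise.

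On D4, WT replicate 1 held the lowest WT value and KO replicate 2 the highest KO value of both Fbxo32 and Trim63. Leaving out either must lower the difference, so the values that follow cannot show that it rested on these libraries. Without WT D4 replicate 1 the difference of Fbxo32 was 0.69 and that of Trim63 0.41, and without KO D4 replicate 2 they were 0.72 and 0.48. Without both libraries, a choice made after seeing the data, they were 0.38 and 0.24. The myofibre sum was 60385, 120041 and 121211 TPM in WT D4 and 98098, 191482 and 165753 TPM in KO D4, and the leukocyte sum in KO D4 replicate 2 was 495 TPM, against 2970 to 6226 TPM in WT D4. Relative to the myofibre genes, Fbxo32 differed by 0.24 on D4 (exact permutation p = 0.6) and Trim63 by -0.12 (exact permutation p = 0.6). On D7 the difference of Trim63 on that scale was 0.38 (exact permutation p = 0.2).

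**Figure D5:**
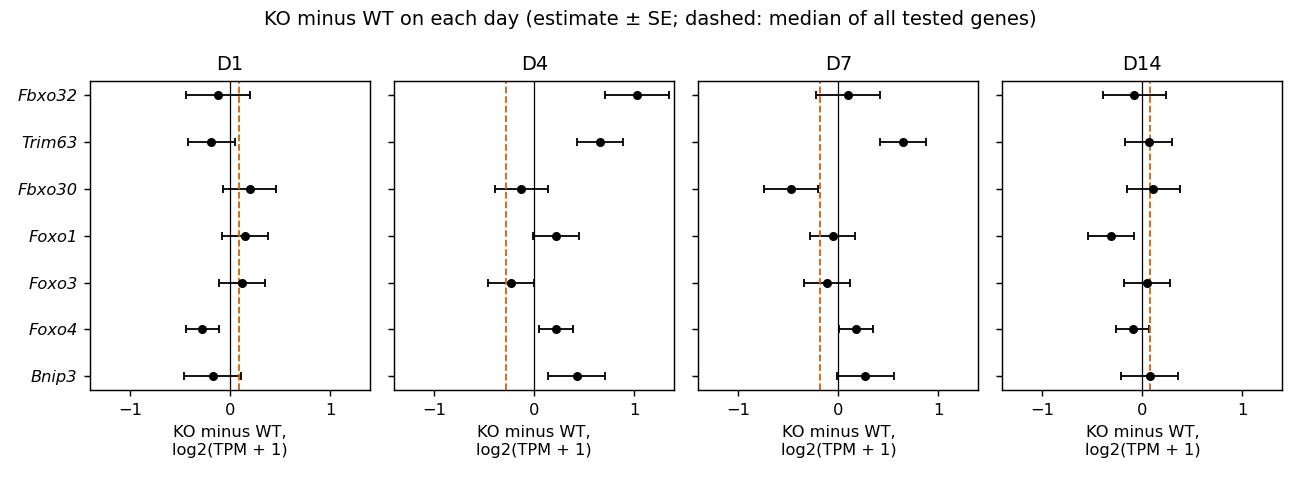
Difference of KO and WT in log2(TPM + 1) for each member on each day (points) with its standard error (bars); the dashed line is the median difference of all 15718 tested genes. Fbxo32 on D4 lies at 1.02 and Trim63 at 0.66 on D4 and 0.65 on D7, and no difference passed an adjusted p of 0.05.

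By overlap, KO libraries were all above WT libraries on D4 for 3 members, Fbxo32, Foxo1 and Foxo4, where 2.77% of all genes showed this. Foxo1 was 5.04, 4.09 and 4.1 TPM in KO D4 and 3.91, 3.24 and 3.77 TPM in WT D4, and Foxo4 was 37.24, 44.63 and 35.42 TPM and 31.36, 34.05 and 34.79 TPM. Their log2 differences were 0.22 ± 0.229 for Foxo1 and 0.22 ± 0.168 for Foxo4. On D7, Trim63 and Bnip3 were above WT without overlap, as were 1.85% of genes, and Fbxo30 was below, as were 14.6%.

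Bnip3 was 142.97, 137.99 and 127.39 TPM in KO D7 and 111.54, 106.19 and 120.82 TPM in WT D7 (0.27 ± 0.285). Fbxo30 was 4.61, 2.11 and 4.72 TPM in KO D7 and 6.26, 5.13 and 5.01 TPM in WT D7 (-0.47 ± 0.267). On D1 and D14, 0 members were free of overlap, against 6.71% and 8.42% of genes. For each of the 6 differences without overlap on D4 and D7 the exact permutation p was 0.1, the smallest possible.

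Averaged over the 4 days, 0 members were called, where 0.00636% of genes were. At an unadjusted p under 0.05 stood 1 member, where 3.54% of genes did. Trim63 was 0.29 ± 0.116 higher in KO (adjusted p = 0.861) and Fbxo32 0.23 ± 0.159 (adjusted p = 0.861). By exact permutation of genotype within days, the unadjusted p was 0.0474 for Trim63, the lowest among the members, and 0.248 for Fbxo32. Foxo1, Foxo3 and Foxo4 averaged between -0.04 and 0.00. The ratio of Trim63 to Fbxo32 was 6.46 to 10.8 in KO D7 and 5.05 to 5.99 in WT D7, without overlap (exact permutation p = 0.1, adjusted p = 0.36), and overlapped on the other days.

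To place the members in their pathway, 80 further genes in 5 lists were counted. They were 18 muscle ubiquitin ligases, 22 genes upstream of FoxO, 18 genes of autophagy and mitophagy, 15 other genes linked to FoxO and 7 genes of the glucocorticoid response. Of these 80 genes, 0 were called between KO and WT on any day or on average in limma.

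From D1 to D4 in WT, 12 of the 80 rose (15%, against 14.6% of all genes) and 17 fell (21.2%, against 5.27% of all genes), and under the other scalings 9 rose and 22 to 26 fell. Among the ligases, 4 rose and 4 fell. Trim54, which encodes the MuRF1 relative MuRF3, fell by 1.58, Klhl40, a stabiliser of thin filament proteins, fell by 0.95 and Fbxo31 fell by 0.91 (not called under 1 of the other scalings), whereas Fbxo21 was 1.12 higher. Trim55, which encodes MuRF2, was 0.63 higher in WT and 0.68 higher in KO. The median of the 18 ligases was -0.23, where that of all genes was 0.17.

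The glucocorticoid response list stood at a median of -1.16 in this step, with 0 of 7 genes rising and 4 falling. Tsc22d3, which encodes the glucocorticoid-induced protein GILZ, fell by 1.50, Zbtb16 fell by 1.25, the clock gene Per1 fell by 1.16 and Cebpd fell by 0.79. In KO none of the 7 was called, and the median was -0.57, where that of all genes was -0.15. The difference of steps was not called for any of them.

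Upstream of FoxO in WT, 2 rose and 3 fell. Mstn, the muscle growth inhibitor myostatin, fell by 2.01 and Prkaa2, a catalytic subunit of AMPK, fell by 1.19, while Foxo6 was 1.59 and Igf1 1.29 higher. In the autophagy list 1 rose and 4 fell. Sqstm1, the autophagy adaptor p62, fell by 1.50, Gabarapl2 fell by 0.78 and Tfeb, a regulator of lysosomal genes, fell by 0.70. Map1lc3a was 0.91 higher as deposited and was not called under the other scalings.

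Of the other genes linked to FoxO, 5 rose and 2 fell from D1 to D4 in WT. Sesn3 was 1.31 higher and the cell cycle inhibitor Cdkn1a 1.21 higher, whereas Klf15 fell by 1.30 and the translation repressor Eif4ebp1 fell by 1.21. In KO, 6 of the 80 genes rose and 8 fell, or 7.5% and 10%, near the 7.18% and 12.2% of all genes (6 to 12 rose and 9 to 11 fell under the other scalings). Eif4ebp1 fell by 1.48, Ctsl by 1.44, Gadd45a by 1.22 and Sqstm1 by 1.19 on the log2 scale, and Foxo6 was 1.84 and Map1lc3a 1.22 higher. Mdm2 fell by 0.76, Igf1r fell by 0.87 and Sirt1 fell by 0.76, and Sesn3 was 0.64 higher.

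Between control muscle and WT D1, 33 of the 80 genes were higher (41.2%, against 55.4% of all genes) and 7 lower (8.75%, against 5.64%) as deposited, but 10 to 15 were higher and 18 to 27 lower under the other scalings. Genes called higher under every scaling included Cdkn1a (2.47 as deposited), Eif4ebp1 (2.20), Gadd45a (2.06), Cebpd (1.80), Ctsl (1.72), Akt1 (1.52), Klhl40 (1.48) and Lamp2 (1.44). Genes called lower under every scaling included Zbtb16 (-1.46), Ppargc1a (-1.35), Asb2 (-1.24), Fbxo40 (-1.16) and Ulk1 (-0.91). Ppargc1a encodes PGC-1alpha, a coactivator of mitochondrial genes that restrains FoxO, and Fbxo40 encodes an F-box protein that targets IRS1. Mdm2, Fkbp5, Per1, Gabarapl2 and Ddit4 were called higher as deposited and lost the call under at least 1 scaling.

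In the later WT steps the split between directions depended on the scaling. From D4 to D7, 3 of the 80 genes rose and 7 fell as deposited, or 3.75% and 8.75%, near the 3.04% and 9.31% of all genes, and 7 to 8 rose and 2 fell under the other scalings. Cdkn1a fell by 2.02 and Akt1 fell by 0.94, and Prkaa2 was 0.93 and Wwp1 0.76 higher, each called under every scaling. From D7 to D14, 3 rose and 15 fell as deposited, or 3.75% and 18.8%, against 0.923% and 30.9% of all genes, and 5 to 10 rose and 3 to 5 fell otherwise. Cdkn1a fell by 1.86, Igf1 fell by 1.58 and Sesn3 fell by 1.15, and Pink1, the kinase that starts mitophagy, was 0.82 higher, each called under every scaling. In KO, 0 of the 80 genes were called in either later step in limma as deposited, and at most 2 were under another scaling.

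Genes with the most similar course over the 8 injured groups were named for the 3 members whose group means ranged over at least 1 on the log2 scale, Fbxo32 (2.51), Trim63 (2.43) and Bnip3 (1.10). Likeness was the root mean square difference of the 8 group means after each gene's own mean was removed. For Fbxo32, whose own deviation was 0.759, the nearest were Asb11 (0.231), Lpin1 (0.246), Kcnc4 (0.254), Hk2 (0.261) and Ell2 (0.268). For Trim63, with a deviation of 0.849, they were Cst6 (0.127), Cnksr1 (0.208), Gm32885 (0.251), H4c17 (0.271) and Fcrl5 (0.281). Cnksr1 lies on the same chromosome as Trim63, at chr4:134228041-134238399.

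For Bnip3, with a deviation of 0.394, the nearest were Pm20d2 (0.0709), Lrrc74b (0.0825), Eepd1 (0.0879), Gm48882 (0.0924) and Kcnn2 (0.0952). Neither ligase was among the nearest genes of the other. In the order of the 8 injured group means, Fbxo32 fell from WT D1 (50.6 TPM) and KO D1 (45.1 TPM), which overlapped, to WT D14 (25.9 TPM), which did not overlap with KO D1, and ended with WT D4 (8.08 TPM), which did not overlap with WT D7 (16.7 TPM). For Trim63 the D1 groups (461 and 409 TPM) were followed without overlap by KO D14 (146 TPM), and KO D4 (136 TPM) by WT D7 (90.2 TPM). For Fbxo30 and Foxo1, all neighbouring groups in the order overlapped.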

How the data were processed

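RNA-seq of mouse muscle was analysed in 27 libraries, of which 24 came from CTX-injured muscle and 3 from control muscle. The authors deposited TPM per gene and library in a table for the 24 injured libraries and in another for control muscle with WT D1, which both tables therefore hold. Paired-end reads were aligned, per the labels, and the submitters' notes name mm10. The aligner, the counting tool and its strand setting are not given in the sources used here. TPM carry no read number, so the depth is unknown and no counting interval was computed. Groups and replicate numbers were read from sample titles, and the deposited group means equalled the means of their libraries within 3.33e-05 TPM.

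The 7 members, the gene lists and the tests were chosen with earlier results of these data known. Genes of at least 1 TPM in at least 3 libraries were fitted as log2(TPM + 1) with limma 3.58.1 (R 4.3.3), with group means, a variance trend and Benjamini-Hochberg adjustment over all genes, and were called at an adjusted p under 0.05. Differences on this scale understate changes of genes with low TPM. No test crossed tables. Single values were compared by exact two-sided permutation, and within the 4 days by 160000 assignments. Named genes were all members, Gsdme, up to 4 called genes per list and comparison with the largest difference, and the 5 nearest genes of members ranging over at least 1. Alternatives were a pseudocount of 0.1, no filter or 5 TPM, median-of-ratios, quantile and top-50 scaling, library quality weights, a replicate block, a fit of each day alone, left-out libraries and the level relative to myofibre genes. Tests were tried on simulated data.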

Additional observations from a re-analysis of the deposited data

How the results depend on the processing

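Of 105 member differences, 10 were called, and 4 of these, the falls of Fbxo32 and Trim63 from D1 to D4 in WT and KO, kept direction and call under every alternative run for them. Of the 73 differences that reached no threshold in any setting, 47 changed sign in at least 1 alternative.

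Members called between KO and WT on D7 numbered 1 with library quality weights, where 0 were called otherwise. These weights raised calls across all genes in the comparisons named here, to 3.39% for that difference, 67.4% for WT D4 to D7, 60.5% and 50% for D7 to D14 in WT and KO, and 83.2% for WT D1 against control. From D4 to D7 in WT, 0 members were called with no filter, with median-of-ratios scaling and without both D4 libraries that stood apart (an alternative chosen after seeing the data), and 2 with library quality weights. Leaving out single libraries gave 0 to 1 there. From D7 to D14, the count in WT was 1 with no filter, 6 with quality weights and 0 to 2 without single libraries, and in KO it was 3 with quality weights. For WT D1 against control, 5 were called with quantile normalization and 5 with quality weights, and 1 to 4 without single libraries. Signs changed for Foxo3 in that comparison under median-of-ratios (-0.31), quantile (-0.43) and top-50 (-0.079) scaling, for Fbxo30 under quantile normalization (-0.025), for Fbxo30 from D7 to D14 in WT under median-of-ratios (0.058) and quantile scaling (0.18), and for Trim63 between genotypes on D4 relative to myofibre genes (-0.12). The cause was not tested.

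The replicate numbers were not used to pair the samples in the main fit. Of 12 WT and KO pairs of the same number and day, 4 correlated above 0.1 (r from -0.40 to 0.39), and of 3 control and WT D1 pairs none did. Numbers need not follow animals, and which control and WT D1 libraries share a mouse is not stated. Pairing by mouse therefore remains unknown. With the replicate block, the count from D4 to D7 in WT was 0 in place of 1.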
